A study of Mus musculus with 6 samples.

Results

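Complement is a cascade of plasma and locally made proteins that tags material for removal. The genes followed here in mouse cortex are 9 of its components and regulators, C1qa, C1qb, C1qc, C1ra, C4b, C3, Serping1, C3ar1 and C5ar1. They were selected by gene symbol, and all 9 were found among the 18283 genes of the count table. The samples were cortex of mice of genotype WT, given AAV-GFP-GA or AAV-GFP, all with a labelled time of 5 months, and each group had 3 libraries. AAV is an adeno-associated virus used to carry genes into cells, GFP is green fluorescent protein, and GA stands for poly-GA, a glycine-alanine repeat protein made from the expanded C9orf72 repeat of amyotrophic lateral sclerosis and frontotemporal dementia. Both groups therefore carried a virus and GFP, and no group without virus was analysed here. The labels do not give the promoter of either vector, the cells that took it up, the number of animals per library, or sex. Nothing in the labels says that libraries came from separate animals, so p-values measure the spread between these samples.

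In the classical pathway, C1q binds a target and activates its partner proteases C1r and C1s. These cleave C4 and C2, and the products form an enzyme that cleaves C3, the component on which all complement routes converge. Fragments released from C3 and C5 act on the receptors C3aR1 and C5aR1 of myeloid cells, while the C1 inhibitor, encoded by Serping1, inactivates C1r and C1s. In brain, C1q comes mainly from microglia, the resident macrophages, and C4b is made largely by glia. In the developing mouse brain C1q and C3 take part in the removal of synapses by microglia.

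None of the 9 genes passed the threshold between cortex with poly-GA and cortex with GFP alone, an adjusted p of 0.05 over all genes tested. The threshold was passed by 3 of 14324 genes, or 0.0209%, in edgeR's quasi-likelihood test. Of the 9 members, 8 passed the filter on low counts and were tested, and C5ar1 did not pass it. The fold changes of all 8 were above 0, where 48.6% of all tested genes were above 0. Their median log2 fold change was 0.27, against -0.0039 over all tested genes. At an unadjusted p under 0.05, edgeR had 3 members, C1qb, C1qc and C4b, all higher with poly-GA, where 3.19% of tested genes were higher and 3.45% lower at that p. At that unadjusted p, DESeq2 had 1 member, C1qb, and limma-voom with sample weights had 4, C1qa, C1qb, C1qc and C4b. Past the adjusted threshold there were 0 in either. Of all tested genes, 4.23% were at that p in DESeq2, 15.4% in limma-voom and 6.64% in edgeR. By edgeR this number was 0 when AAV-GFP-GA replicate 2 was left out, likewise 0 when AAV-GFP replicate 2 was and 1 when AAV-GFP replicate 1 was. It was 4 without AAV-GFP replicate 3, where 19.8% of all tested genes were at that p. The members share libraries, and some share cells of origin, so they are not independent of each other.

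Library totals lay between 16748754 and 17576017 expected counts. Markers of neurons summed to between 10116 and 11030 CPM, counts scaled to library depth, and all 8 were detected in all libraries, as were all 8 of astrocytes, all 8 of oligodendrocytes and all 12 of microglia. Some libraries stood apart. AAV-GFP replicate 3 had 1 read from 4 Y-linked genes, where the others had 2018 to 2270. The AAV-GFP group thus mixed libraries with and nearly without Y-linked reads, a sign of male tissue, and all poly-GA libraries had them. Reads of 12 intestinal epithelium genes summed to 40 in AAV-GFP replicate 1 and 35 in AAV-GFP replicate 2, and to between 158 and 264 in the other 4 libraries. Markers of choroid plexus, the secretory tissue of the ventricles, ran from 383 to 1988 CPM. Results are given below also without AAV-GFP replicate 3, and with a term that sets AAV-GFP replicates 1 and 2 apart, which compares the 3 poly-GA libraries with AAV-GFP replicate 3 alone. That fit has 1 control library, itself one that stands apart and nearly without Y-linked reads. Its SEs assume that this library varies like the others.

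**Figure D1:**
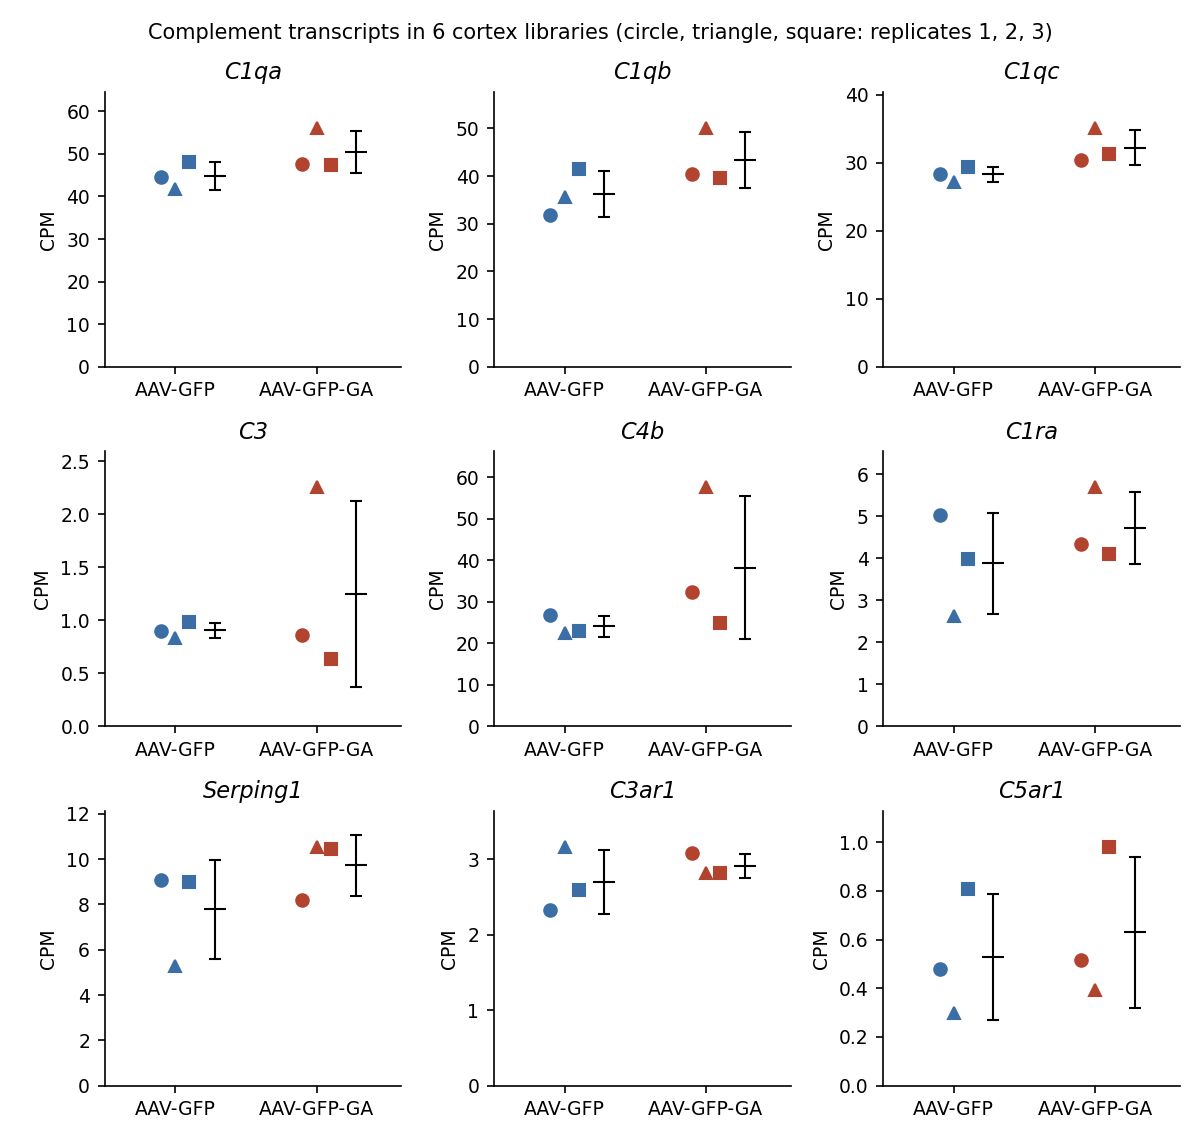
CPM of each of the 9 complement genes (y axis, from 0) in the 6 libraries, with AAV-GFP in blue and AAV-GFP-GA in red. Circles, triangles and squares are replicates 1, 2 and 3, and bars give the mean ± SD of 3 libraries. For 7 of the 9 genes the highest value is the triangle of AAV-GFP-GA replicate 2, by the widest margin for C4b and C3.

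The C1q chains were the most abundant members per length of transcript. C1qa, C1qb and C1qc encode the A, B and C chains, which join into 1 protein. In CPM per kilobase of exon, the order was C1qa at 45.8, C1qb at 36.6, C1qc at 25.1, C4b at 5.79, Serping1 at 4.35, C1ra at 1.44, C3ar1 at 0.652, C5ar1 at 0.225 and C3 at 0.210, as means over 6 libraries. The ranges over libraries overlapped for 3 neighbours in that order, namely C1qa with C1qb, C4b with Serping1, and C5ar1 with C3. Within a library, C1qa was above C1qb in 6 of 6 by a ratio of 1.17 to 1.46, and C1qb was above C1qc in 6 of 6. C4b was above Serping1 in 4 of 6, and C5ar1 above C3 in 4 of 6.

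The C1q genes lie side by side on chromosome 4 within 18719 bases, all on the minus strand (mm10, the build also called GRCm38). C1qb (Entrez gene 12260) spans 136880126 to 136886200, C1qc (Entrez gene 12262) spans 136889801 to 136892936, and C1qa (Entrez gene 12259) spans 136895916 to 136898844. Of the C1q genes, only C1qb and C1qc had a window at the start available here. These windows of C1qb (chr4:136886151-136886450, minus strand) and C1qc (chr4:136892865-136893164, minus strand) are shown for that reason. They run from 250 bases before to 50 after the start, from RefSeq on GRCm38.p6, and capitals mark a match to a searched motif. For C1qc the start used lies within the span given above, not at its end of 136892936.
C1qb: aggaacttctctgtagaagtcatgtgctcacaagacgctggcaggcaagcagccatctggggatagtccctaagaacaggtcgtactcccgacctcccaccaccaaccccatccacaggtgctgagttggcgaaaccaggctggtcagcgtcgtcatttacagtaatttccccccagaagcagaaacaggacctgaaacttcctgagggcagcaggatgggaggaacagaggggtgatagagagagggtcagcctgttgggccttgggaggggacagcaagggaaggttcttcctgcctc
C1qc: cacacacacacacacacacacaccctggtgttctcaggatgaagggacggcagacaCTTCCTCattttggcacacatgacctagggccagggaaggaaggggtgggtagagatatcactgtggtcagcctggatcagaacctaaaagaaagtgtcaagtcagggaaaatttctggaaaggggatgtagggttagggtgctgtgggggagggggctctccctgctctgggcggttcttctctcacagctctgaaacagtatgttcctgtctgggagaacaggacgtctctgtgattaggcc
The motifs searched, on both strands, were GAGGAAG, a form of the site of PU.1, a myeloid transcription factor, the interferon-stimulated response element (ISRE), and TTCNNNGAA, the gamma-activated site, which reads the same on both strands. No match overlapped another. C1qc had 1 match to the first, on the opposite strand, beginning at position -194 from the start, and the C1qb window had none of them. Of 32851 such windows of all genes, 13.6% held the first motif, 3.44% the second and 8.30% the third. Such windows were held for 6 of the 9 members, not for C1qa, C4b and Serping1.

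C1qa was at 47.6, 56.1 and 47.4 CPM in AAV-GFP-GA replicates 1, 2 and 3, and at 44.5, 41.7 and 48.2 CPM in AAV-GFP replicates 1, 2 and 3. The groups overlapped, since AAV-GFP replicate 3 lay above 2 of the poly-GA libraries. Its log2 fold change was 0.17 ± 0.09 (SE), a fold of 1.12 with a 95% interval from 0.985 to 1.28, and its adjusted p by edgeR was 0.751.

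C1qb was at 40.4, 50.1 and 39.5 CPM with poly-GA and at 31.9, 35.5 and 41.4 CPM with GFP alone. AAV-GFP replicate 3 again reached into the poly-GA range. The log2 fold change of C1qb was 0.26 ± 0.11 (95% interval 1.002-fold to 1.42-fold), with an unadjusted p of 0.0475 (adjusted 0.746, edgeR).

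C1qc was at 30.3, 35.1 and 31.2 CPM with poly-GA and at 28.3, 27.1 and 29.4 CPM with GFP alone. It was the only tested member whose groups did not overlap, with the poly-GA libraries higher, as for 6.09% of all tested genes, while 5.79% did not overlap in the other direction. Its log2 fold change was 0.19 ± 0.08, a fold of 1.14 with a 95% interval from 1.007 to 1.29, with an unadjusted p of 0.0403 (adjusted 0.742, edgeR).

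The intervals of C1qa, C1qb and C1qc thus all ended below a fold of 1.5. Their shares of C1q reads kept close across libraries, with C1qa at 39.7% to 42.5%, C1qb at 30.5% to 35.4% and C1qc at 24.7% to 27.03% of the reads of the 3 chains. The Pearson r of log2(CPM + 0.5) over the 6 libraries was 0.90 for C1qa with C1qb, 0.96 for C1qa with C1qc and 0.88 for C1qb with C1qc, as a description of libraries that share a group structure. With AAV-GFP replicate 3 as the sole control, smaller log2 values were found, 0.06 ± 0.11 for C1qa, 0.07 ± 0.13 for C1qb and 0.13 ± 0.11 for C1qc. Without AAV-GFP replicate 3 they were 0.23 ± 0.08, 0.37 ± 0.11 and 0.22 ± 0.08, with adjusted p-values by edgeR of 0.181, 0.112 and 0.188. Without AAV-GFP-GA replicate 2 they were 0.08 ± 0.09, 0.14 ± 0.11 and 0.12 ± 0.09.

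The C1q chains were set beside markers of microglia. The 3 C1q chains summed to 118, 141 and 118 CPM in AAV-GFP-GA replicates 1, 2 and 3 and to 105, 104 and 119 CPM in AAV-GFP replicates 1, 2 and 3. The 12 microglial markers summed to 503, 518 and 527 CPM and to 465, 508 and 459 CPM in the same order. Of these 12 genes, 0 passed the threshold and 0 were at 0 in any library. At an unadjusted p under 0.05 by edgeR, 4 were higher and 0 lower, where 3.19% of all tested genes were higher and 3.45% lower. The median log2 fold change of the 12 was 0.08, and P2ry12, Gpr34 and Siglech were below 0. The ratio of the C1q sum to the marker sum was 0.244 ± 0.0253 with poly-GA and 0.230 ± 0.0272 with GFP alone (SD, n = 3 per group), a difference smaller than either SD. The highest ratio was 0.273 in AAV-GFP-GA replicate 2, followed by 0.259 in AAV-GFP replicate 3, so the order of libraries in this ratio did not follow the groups. In whole tissue, more microglia and more C1q RNA per microglial cell cannot be told apart. Macrophages of the brain's borders also make C1q, and their 8 markers, none at 0 in any library, summed to 22.4 to 29.5 CPM with poly-GA and 24.03 to 25.2 CPM with GFP alone. The part of either cell type in the C1q values was not tested.

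**Figure D2:**
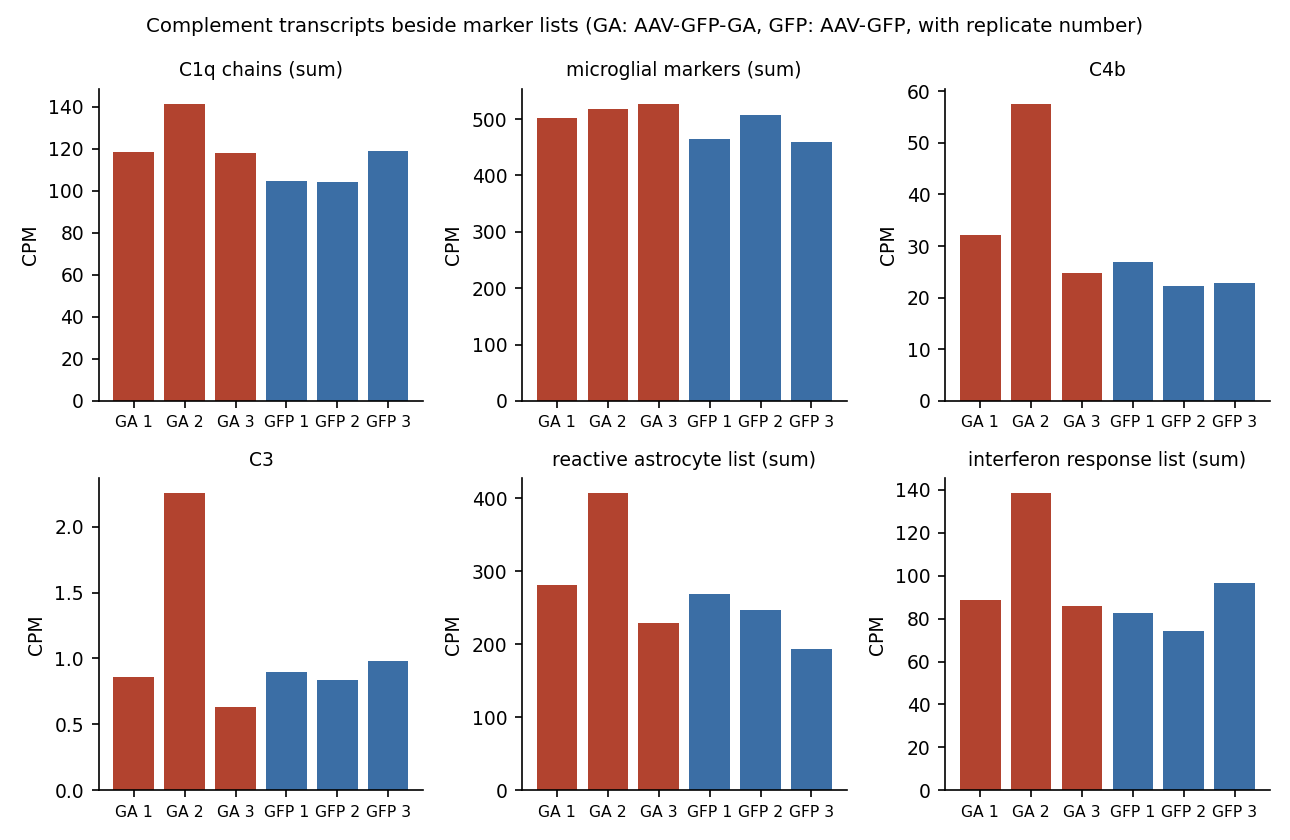
Summed CPM of the 3 C1q chains and of 12 microglial markers, CPM of C4b and of C3, and summed CPM of the reactive astrocyte and interferon response lists (y axes, from 0) in each library, AAV-GFP-GA (GA) in red and AAV-GFP (GFP) in blue. AAV-GFP-GA replicate 2 has the tallest bar in all panels except the microglial markers.

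C4b had the largest fold change of the tested members, and AAV-GFP-GA replicate 2 decided its size. C4b (Entrez gene 12268, chromosome 17, 34728139 to 34743902, minus strand) encodes mouse C4, which attaches covalently to surfaces after cleavage by C1s. It was at 32.2, 57.5 and 24.9 CPM in AAV-GFP-GA replicates 1, 2 and 3 and at 26.9, 22.4 and 22.9 CPM in AAV-GFP replicates 1, 2 and 3. AAV-GFP-GA replicate 2 was 2.31-fold above the median of the other 5 libraries, and AAV-GFP-GA replicate 3 lay below AAV-GFP replicate 1. For C4b the log2 fold change was 0.67 ± 0.25, a fold of 1.59 with a 95% interval from 1.09 to 2.32. Its unadjusted p was 0.0202 by edgeR (adjusted 0.742), 0.070 by DESeq2 and 0.0387 by limma-voom with sample weights. Without AAV-GFP-GA replicate 2 the log2 fold change dropped to 0.25 ± 0.13, and with AAV-GFP replicate 3 as the sole control it was 0.74 ± 0.37.

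C4b has a near copy, C4a, whose longest annotated transcript was 96.1% identical to that of C4b over 5367 aligned bases. Of the 100-base windows of the C4b transcript, 16.5% also occurred in C4a, so some reads could have gone to either. C4a received 7.2 to 11.39 expected counts per library where C4b received 373.66 to 1020.61. With reads of the pair summed, the log2 fold change was 0.66 ± 0.24.

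C3 (Entrez gene 12266, chromosome 17, 57203967 to 57228136, minus strand), the central component, was scarce in all libraries. Its reads numbered 15, 40 and 11 in the poly-GA libraries against 15, 14 and 17 in those with GFP alone. The 40 reads of AAV-GFP-GA replicate 2 had an exact 95% Poisson interval from 28.6 to 54.5, above the intervals of the other libraries, of which the highest reached 27.2. Such intervals cover counting error only. The other poly-GA libraries lay within or below the GFP range. The log2 fold change was 0.47 ± 0.45 (adjusted p by edgeR 0.838), and its sign changed to -0.28 ± 0.37 without AAV-GFP-GA replicate 2. The 95% interval with all libraries ran from a fold of 0.694 to 2.74.

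C4b and C3 stood high in the same library as reactive astrocyte and interferon genes. The 8 genes of the reactive astrocyte list summed to 282, 407 and 230 CPM in AAV-GFP-GA replicates 1, 2 and 3 and to 269, 247 and 194 CPM in AAV-GFP replicates 1, 2 and 3. Most of this sum was Gfap, the astrocyte filament, at 321 CPM in AAV-GFP-GA replicate 2 and 139 to 211 CPM in the others. The 14 interferon response genes summed to 88.7, 139 and 85.8 CPM and to 82.6, 74.4 and 96.6 CPM in the same order. No gene of either list passed the threshold. At an unadjusted p under 0.05 by edgeR, 2 of the 5 tested reactive astrocyte genes and 1 of the 14 interferon genes were higher, and 0 were lower. Of all tested genes, 3.19% were higher and 3.45% lower at that p. Cd44 of the reactive astrocyte list had a log2 fold change below 0, at -0.26 ± 0.19. No gene of either list was at 0 in any library. Markers of blood myeloid cells, a further source of complement, summed to 2.17 to 2.76 CPM with poly-GA and 1.85 to 2.45 CPM with GFP alone over 8 genes, 0 to 2 of them at 0 in a library. AAV-GFP-GA replicate 2 was also the highest library in the marker sums of blood myeloid cells, border macrophages, oligodendrocytes, endothelium and mural cells. It was not the highest in those of microglia, astrocytes, neurons, lymphocytes, fibroblasts and meninges, choroid plexus or intestinal epithelium. The part of any of these cells and responses in the C4b and C3 values was not tested.

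**Figure D3:**
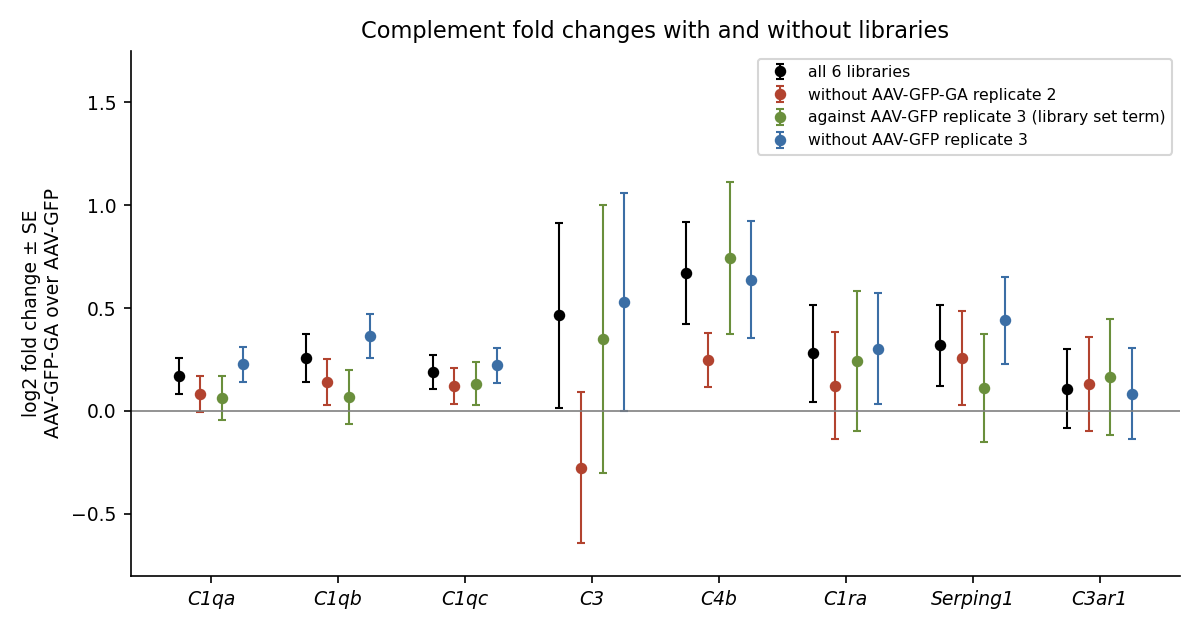
Log2 fold change ± SE of the 8 tested complement genes (y axis) with all 6 libraries, without AAV-GFP-GA replicate 2, against AAV-GFP replicate 3 through the library set term, and without AAV-GFP replicate 3. Leaving out AAV-GFP-GA replicate 2 takes C4b from 0.67 to 0.25 and C3 from 0.47 to -0.28, and the C1q values are smallest against AAV-GFP replicate 3 or without AAV-GFP-GA replicate 2.

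C1ra and Serping1, a protease of the C1 complex and its inhibitor, varied most through a low AAV-GFP replicate 2. C1ra (Entrez gene 50909, chromosome 6, 124512621 to 124523440, plus strand) was at 4.35, 5.69 and 4.10 CPM with poly-GA and at 5.03, 2.63 and 3.98 CPM with GFP alone. The groups overlapped, and AAV-GFP replicate 1 was second only to AAV-GFP-GA replicate 2. C1ra had a log2 fold change of 0.28 ± 0.23 (adjusted p by edgeR 0.805), with a 95% interval from 0.848-fold to 1.74-fold, and it was 0.07 without AAV-GFP replicate 2. Its copy C1rb, 98.0% identical to C1ra over 2429 aligned bases, was not analysed here, and 34.5% of the 100-base windows of C1ra also occurred in it. Reads of the pair may thus have been counted as C1ra.

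The window at the start of C1ra (chr6:124512371-124512670, plus strand, RefSeq, GRCm38.p6) is shown because it was the only one of the 6 windows with a match to an interferon-related motif.
C1ra: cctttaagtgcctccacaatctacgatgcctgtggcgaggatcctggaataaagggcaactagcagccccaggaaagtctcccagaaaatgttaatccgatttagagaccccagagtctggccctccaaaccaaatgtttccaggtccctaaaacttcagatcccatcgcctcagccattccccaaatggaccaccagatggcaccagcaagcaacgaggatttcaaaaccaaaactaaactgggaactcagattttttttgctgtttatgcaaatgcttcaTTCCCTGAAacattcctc
The capitals mark a match to the gamma-activated site, which began at position 33 after the start. None of the 6 windows matched the interferon-stimulated response element.

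Serping1 (Entrez gene 12258, chromosome 2, 84765360 to 84775444, minus strand) was at 8.18, 10.5 and 10.4 CPM with poly-GA and at 9.09, 5.26 and 9.01 CPM with GFP alone. AAV-GFP replicate 2 was the lowest library and AAV-GFP-GA replicate 1 lay below the other AAV-GFP libraries. The log2 fold change was 0.32 ± 0.20 (adjusted p by edgeR 0.751), with a 95% interval from 0.924-fold to 1.68-fold. It was 0.10 without AAV-GFP replicate 2, and 0.11 ± 0.26 against AAV-GFP replicate 3 alone.

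AAV-GFP-GA replicate 2 was the highest of the 6 libraries for 7 of the 8 tested members, all but C3ar1, where it was the highest for 13.7% of all tested genes. AAV-GFP replicate 2 was the lowest for 5 of the 8, where it was the lowest for 21.2% of all tested genes. Both counts were made after the values were seen. Markers of endothelium, which lines blood vessels, were at 206 to 245 CPM with poly-GA and 169 to 203 CPM with GFP alone, and those of fibroblasts and meninges at 181 to 220 and 183 to 256 CPM. For both lists all 8 genes were detected in all libraries. AAV-GFP replicate 2 was the lowest library in the endothelial sum and AAV-GFP-GA replicate 2 the highest. The part of these cells in the Serping1 and C1ra values was not tested.

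The receptors for the released fragments were among the scarcer members. C3ar1 (Entrez gene 12267, chromosome 6, 122847140 to 122856157, minus strand), the receptor of C3a on microglia, was at 3.09, 2.82 and 2.83 CPM with poly-GA and at 2.33, 3.17 and 2.60 CPM with GFP alone. The poly-GA libraries all lay inside the GFP range. The log2 fold change was 0.11 ± 0.19 (adjusted p by edgeR 0.923), with a 95% interval from 0.802-fold to 1.45-fold. It was 0.02 without AAV-GFP replicate 1 and 0.24 without AAV-GFP replicate 2.

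C5ar1 (Entrez gene 12273, chromosome 7, 16246743 to 16259540, minus strand), the receptor of C5a, was read 9, 7 and 17 times in the poly-GA libraries and 8, 5 and 14 times in the others. In each group replicate 3 had the most reads, and the groups overlapped throughout. With no filter on low counts its log2 fold change was 0.24 ± 0.48 (95% interval 0.577-fold to 2.43-fold).

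The rest of the pathway was read from a list of 56 further complement genes, of which 49 were in the table and 28 were tested. None of the 28 passed the threshold in edgeR, DESeq2 or limma-voom, 3 were higher and 1 lower at an unadjusted p under 0.05 by edgeR, and the median log2 fold change was 0.05. The groups did not overlap for 5 of them, with Vtn, Cd93 and Nptxr higher and Cfp and Cd59a, an inhibitor of the terminal complex, lower. Of all tested genes, 6.09% did not overlap and were higher with poly-GA, and 5.79% did not overlap and were lower. At an unadjusted p under 0.05 by edgeR, 3.19% of all tested genes were higher and 3.45% lower.

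**Figure D4:**
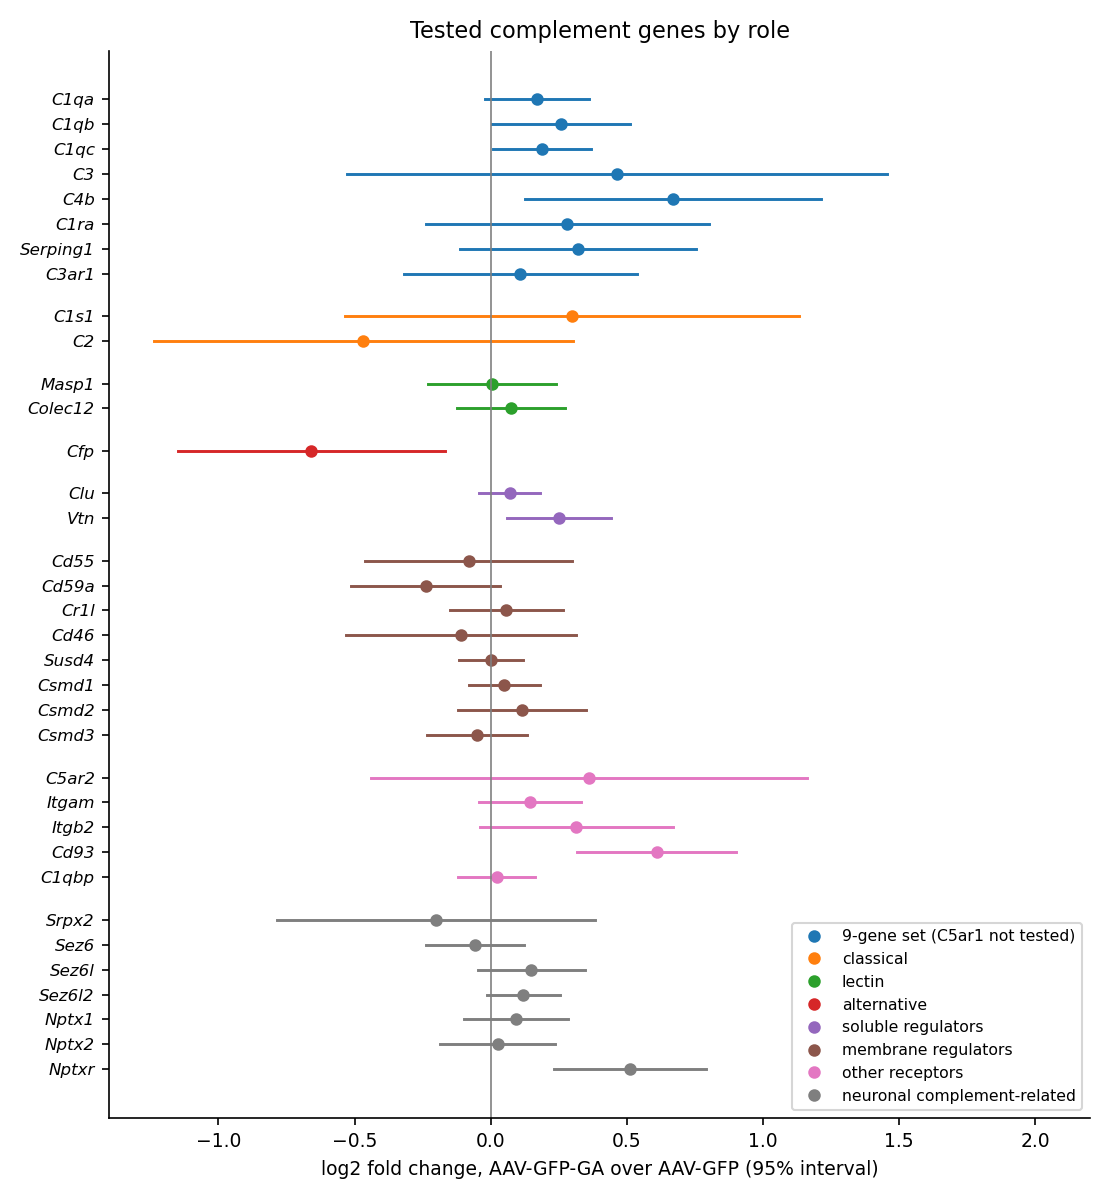
Log2 fold change of AAV-GFP-GA over AAV-GFP (x axis) with its 95% interval for all but 1 of the 36 tested complement genes, grouped and coloured by role. The intervals of C1qb, C1qc, C4b, Vtn, Cd93 and Nptxr lie above 0 and that of Cfp below 0, and none of these genes passed after adjustment over all genes.

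In the classical route, the remaining C1 protease gene C1s1 had a log2 fold change of 0.30 ± 0.38 and C2, the partner of C4 in the C3-cleaving enzyme, -0.47 ± 0.35. C1s1 was at -0.10 against AAV-GFP replicate 3 alone, and at 0.04 without AAV-GFP-GA replicate 2. C2 was at -0.17 without AAV-GFP-GA replicate 1 and at -0.89 without AAV-GFP-GA replicate 3. In the lectin route, the protease gene Masp1 and the collectin gene Colec12 were at 17.1 ± 1.04 against 17.002 ± 2.16 CPM and 17.3 ± 0.930 against 16.4 ± 1.11 CPM (SD, n = 3 per group). In the alternative route, the only tested gene was Cfp, which encodes properdin, a stabiliser of the C3-cleaving enzyme. Its reads numbered 37, 38 and 24 in the poly-GA libraries against 52, 50 and 49 in the others, so all poly-GA libraries lay below all GFP libraries. Its log2 fold change was -0.66 ± 0.22, with an unadjusted p of 0.0132 (adjusted 0.742, edgeR). Cfp was at -0.48 when AAV-GFP-GA replicate 3 was left out (unadjusted p 0.0525, edgeR) and at -0.59 ± 0.31 with AAV-GFP replicate 3 as the sole control (unadjusted p 0.0914, edgeR).

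Genes of the terminal complex, which forms pores in membranes, were at the lower end of detection. All 7 were in the table and none passed the filter. C8g had at most 13 reads in a library and C7 at most 10, while C6 and C9 had 1 read each over all 6 libraries.

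Among the soluble regulators, Vtn was higher in all poly-GA libraries. It encodes vitronectin, which binds the forming terminal complex and is also a marker of brain pericytes. It was at 63.01, 69.2 and 72.98 CPM with poly-GA and at 60.1, 50.6 and 61.7 CPM with GFP alone, a log2 fold change of 0.25 ± 0.09 with an unadjusted p of 0.0149 (adjusted 0.742, edgeR). With AAV-GFP replicate 3 as the sole control, Vtn was at 0.15 ± 0.11, with an unadjusted p of 0.198 (adjusted 0.828, edgeR). Vtn was at 0.17 when AAV-GFP replicate 2 was left out (unadjusted p 0.0598, edgeR) and at 0.20 when AAV-GFP-GA replicate 3 was (unadjusted p 0.0627, edgeR). The list of 8 mural cell markers, which includes Vtn, summed to 232 to 274 CPM with poly-GA and 222 to 243 CPM with GFP alone, and all 8 genes were detected in all libraries. The part of mural cells in the Vtn values was not tested. Clu, the abundant chaperone and complement inhibitor clusterin, had a log2 fold change of 0.07 ± 0.05.

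Of the 8 tested membrane-bound regulators, 3 had fold changes above 0 and 5 below, and their median on the log2 scale was -0.03. Susd4 and Csmd1, the most abundant of them, had log2 fold changes of -0.00017 ± 0.053 and 0.05 ± 0.06. The sign of Susd4 turned positive under other scalings, at 0.0021 with DESeq2 size factors and 0.011 with upper quartile scaling.

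Of the other receptors, 5 were tested and all had fold changes above 0. Cd93, an endothelial and myeloid surface protein first described as a C1q receptor, was at 9.84, 10.7 and 12.3 CPM with poly-GA and at 8.14, 6.69 and 6.70 CPM with GFP alone. The groups did not overlap, and its log2 fold change of 0.61 ± 0.13 had an unadjusted p of 8.3e-04 (adjusted 0.684, edgeR). Of the 8 endothelial markers, 3 did not overlap between groups and were higher with poly-GA, as for 6.09% of all tested genes. None of the 8 passed the threshold, and Cldn5 had a log2 fold change below 0, at -0.05 ± 0.15. The sums of the 8 markers, given above, were 206 to 245 CPM against 169 to 203 CPM. The part of endothelium in the Cd93 values was not tested. Itgam and Itgb2, the chains of complement receptor 3 of microglia, had log2 fold changes of 0.14 ± 0.08 and 0.31 ± 0.16. Itgax, which pairs with Itgb2 in complement receptor 4, was below the filter and was read 5, 39 and 10 times in the poly-GA libraries and 6, 8 and 11 times in the others, with the highest number again in AAV-GFP-GA replicate 2. Itgax, Itgam, Itgb2, Clu, Cd59a, C6 and C9 were named after their values were seen.

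Of 7 neuronal genes linked to complement, 5 had fold changes above 0 and 2 below, with a median of 0.09 on the log2 scale. Among them, Nptxr, the neuronal pentraxin receptor, stood at 557, 493 and 524 CPM with poly-GA and at 420.5, 279 and 404 CPM with GFP alone. All poly-GA libraries were higher, as for 6.09% of all tested genes, and AAV-GFP replicate 2 was the lowest. The log2 fold change of Nptxr was 0.51 ± 0.13 with an unadjusted p of 0.0021 (adjusted 0.742, edgeR). With AAV-GFP replicate 3 as the sole control it was 0.38 ± 0.17 (unadjusted p 0.0534, edgeR).

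The genes whose profile over the 6 libraries was most like that of the C1q chains were sought among 9864 genes with a mean of at least 10 CPM, by Pearson r of log2(CPM + 0.5). The 5 with the highest r were Fbxo7, Dnm2, Kcnh7, Bod1 and Pbxip1, with r from 0.98 to 0.99. For C4b they were Csf1, Lgmn, Erap1, Sned1 and Prrc1, with r from 0.97 to 0.98. Csf1 encodes a growth factor of microglia and Lgmn a lysosomal protease, and their values in AAV-GFP-GA replicate 2 were 32.3 and 115 CPM, where the other libraries had 24.6 to 27.2 and 98.4 to 107 CPM. With 6 libraries and 9864 candidates, values of r this high describe these libraries only.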

How the data were processed

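RNA was extracted with Trizol and libraries were made by BGI's standard protocol, per the labels' protocols. Tools listed, without role or order, per the submitters' processing notes were RSEM 1.2.12 and Bowtie2 2.2.5, and the build mm10. Annotation, strand setting and read filters: not given in the sources used here. The authors deposited 1 table of expected counts per gene, not scaled to depth, with 1 column per library; the unit was read from the column names and from the 7.32% to 7.81% of entries that were not whole. RSEM shares reads among similar genes, so values of near copies are estimates. The row that named no gene was left out.

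Counts were rounded, filtered with edgeR's filterByExpr (14324 genes kept) and scaled by TMM. edgeR 4.0.16 (R 4.3.3) tested all 6 libraries with its quasi-likelihood test, two-sided, no covariate, with Benjamini-Hochberg adjustment over all tested genes and a threshold of 0.05. The common biological coefficient of variation was 7.92%. The test was also run on simulated data. CPM used the scaled library sizes; exon lengths and transcripts came from GENCODE M21 (GRCm38), and coordinates, 1-based, from RefSeq on GRCm38.p6. Alternatives were other scalings and filters, DESeq2 1.42.0, limma-voom (limma 3.58.1), the replicate block, the library set term, summed near copies and each library left out. The members and gene lists were chosen with earlier results of these data known. Named were all 9 members and, of each other complement list, genes with an unadjusted p under 0.05 or else the 2 most expressed; some further genes were named for their values, as stated. A gene of the soluble regulators is counted but not reported here.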

Additional observations from a re-analysis of the deposited data

How the results depend on the processing

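No complement gene passed the threshold under any of the 15 alternatives. All fold changes of C1qa, C1qb, C1qc, C4b, C1ra, Serping1 and C3ar1 stayed above 0 in them. Leaving out 1 library, the log2 fold change ran from 0.25 to 0.90 for C4b, from -0.28 to 0.78 for C3 and from -0.038 to 0.49 for C5ar1, which was tested in 4 of these 6 fits, not in those without replicate 3 of either group. C3 was below 0 without AAV-GFP-GA replicate 2 and C5ar1 without AAV-GFP replicate 2, and with at least 1 CPM in 3 libraries C3 was not tested. With the library set term C1s1 was at -0.10, Masp1 at -0.12 and Susd4 at 0.036. Masp1 ran from -0.097 to 0.071 and Susd4 from -0.015 to 0.023 when 1 library was left out. Susd4 was at 0.0021 with DESeq2 size factors, 0.011 with upper quartile scaling, 0.0018 with no filter, 0.00021 with the stricter filter and 0.0021 with DESeq2. The count of genes past the threshold went from 3 to 10 with DESeq2 and to 9 with the library set term, and ran from 2 to 72 when 1 library was left out, with 72 without AAV-GFP replicate 3 and 5 without AAV-GFP replicate 1, as also without AAV-GFP-GA replicate 3. The causes were not tested. The log2 ratio of C1q to microglial markers, 0.09 higher with poly-GA, ran from 0.0061 to 0.18 when 1 library was left out, the lowest without AAV-GFP-GA replicate 2.

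For same-numbered replicates, the correlation of deviations from the group means was 0.09, -0.13 and 0.06 for numbers 1, 2 and 3. For pairs with different numbers it ran from -0.23 to 0.17. Deviations from a mean of 3 libraries are tied to each other, so these values cannot show whether same-numbered samples were handled together. With the replicate as a block, 2 genes passed, none of them a complement gene, and C4b had a log2 fold change of 0.60. C3 and C5ar1 had at most 40 and 17 reads in a library, the fewest of the members.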
